A study of Astyanax mexicanus with 12 samples.

Results

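Blood clotting factors and fibrinogen were followed in the livers of the Mexican tetra, Astyanax mexicanus, a fish with an eyed surface form and blind cave forms. The members were set by name: f2, f5, f7, f9a, f9b, f10, fga, fgb, fgg and plg. Of these 10 names, 8 matched a gene among the 27420 in the deposited table, and fga and plg were not analysed here because no entry carried those names. Poly(A) RNA of adult liver was sequenced in 12 libraries, in 4 groups of 3: wild-caught cave fish, titled Pachón for their cave, laboratory cave fish under the same title, surface fish caught in the wild and surface fish of the laboratory. All fish had been fasted for 12 hours. Beyond the adult stage, the labels used here state neither sex, age, body size, capture date nor laboratory lineage. The wild-caught and laboratory fish of a form may thus differ in ancestry as well as in surroundings, and capture place goes with form in wild-caught fish, so that these cannot be told apart. The labels number the libraries of a group but do not say that each is a separate fish, so the p-values below measure only the spread between these samples, which may be technical.

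In vertebrates the liver makes most of the proteins that turn liquid blood into a clot. Tissue factor and factor VII start the cascade, factors IX and X carry it on, and factor X with its cofactor, factor V, cuts prothrombin to thrombin. Thrombin then cuts fibrinogen, a protein built of alpha, beta and gamma chains, into fibrin, which plasmin later dissolves. Factors II, VII, IX and X need a vitamin K-dependent modification in the hepatocyte, and fibrinogen is known in mammals as an acute phase protein that rises through IL-6 signalling.

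Abundance was given as TPM, a share of the library's transcripts scaled by transcript length, and the depth behind each value is unknown. Because TPM is a share, the same value can come from fewer cells that make a transcript or from less of it per cell, and these cannot be told apart in whole liver. The libraries differed in makeup. Ribosomal protein genes took 32.4 to 35.6% of the total in wild cave livers, against 11.2 to 23.4% in the other 3 groups, and genes at 1 TPM or more numbered 9144 to 10034 there, against 10924 to 12343 elsewhere. Differences were therefore also computed after median-of-ratios scaling, which centres each library on the bulk of its genes. The median difference over the 12895 genes tested was -0.46 log2 between wild cave and wild surface livers and -0.69 between wild and laboratory cave livers as deposited, against -0.03 and 0.01 after scaling. Surface wild libraries 1 and 2 stood apart on the first principal component of all tested genes, at -113 and -101, while surface wild library 3 lay at -37.3 and the other 9 between -8.38 and 61.5. Calls that rest on those libraries are given with and without them, and the lone remaining surface wild library was then assumed to vary like the other groups.

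All 8 genes were at 25.0 TPM or more in every library and passed the filter of 1 TPM in at least 3 libraries. On the length-scaled TPM scale their mean levels over the 12 libraries ran from fgg at 9297 and fgb at 8386, through f2 at 3768, f10 at 839, f5 at 608, f9a at 283 and f9b at 182, to f7 at 78.0. The order held within every library between f2 and f10, between f9a and f9b and between f9b and f7. It did not hold throughout between fgg and fgb, where fgg was higher in 8 of 12 libraries, or between f10 and f5, where f10 was higher in 8. f5 lay below f9a in all 3 wild cave livers and above it in 8 of 12 libraries in all. The gene with the widest range was f5, whose highest library held 10.8 times its lowest, and the narrowest was f2, at 2.89 times. In the RefSeq gene order of the AstMex3_surface assembly, prozb, f10, f7 and f7l follow each other, and fgb lies beside fga but apart from fgg, while f9a and f9b each lie next to a copy of fgf13. The assembly behind the deposited table is not known here, and positions are therefore left out.

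**Figure D1:**
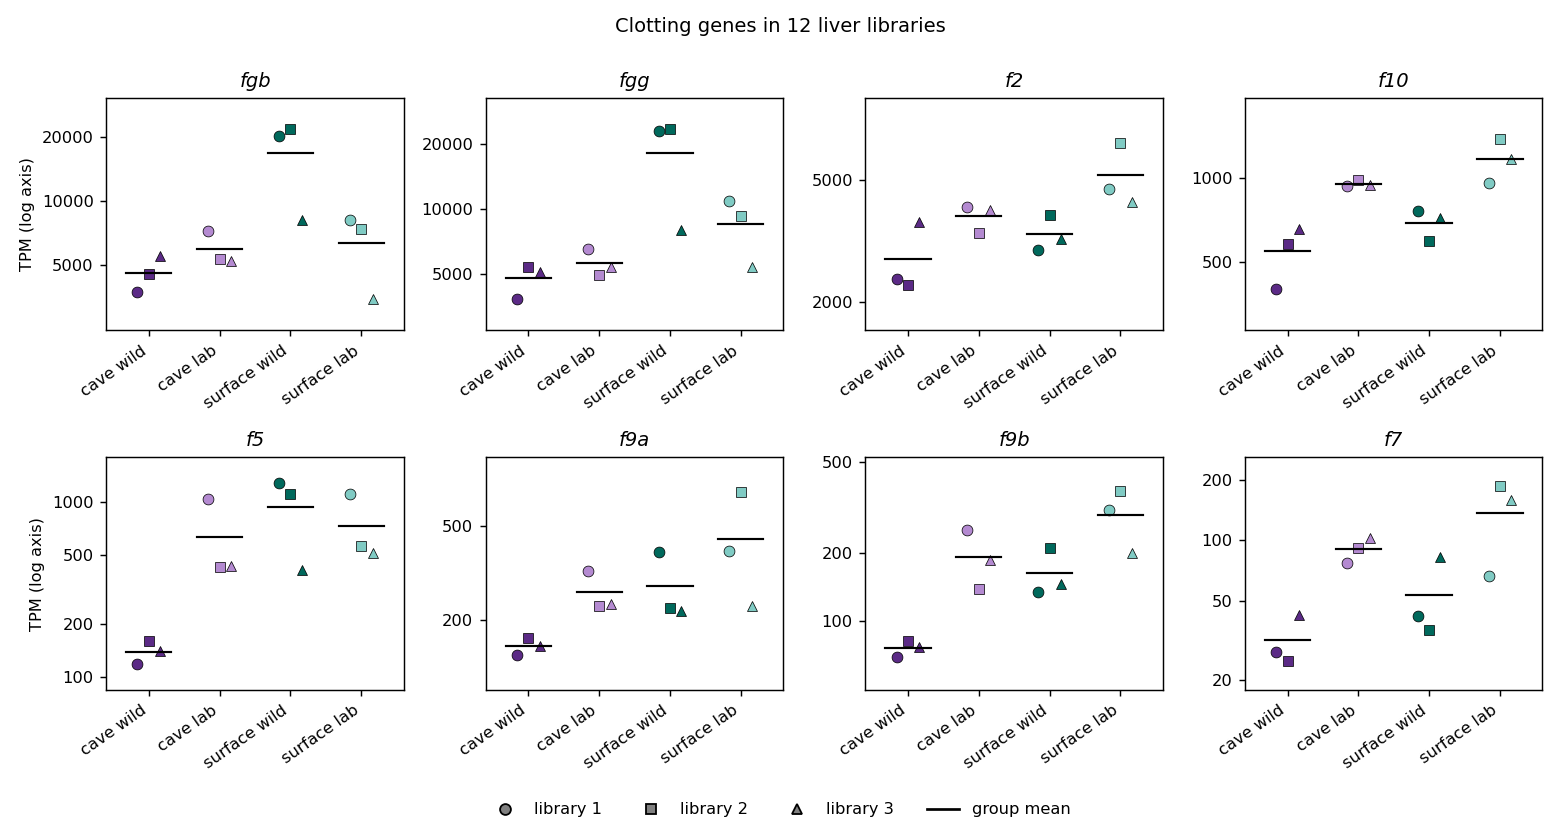
TPM of each clotting gene (log axis, 1 panel a gene) in the 12 liver libraries, by group, with library 1 as a circle, 2 as a square and 3 as a triangle, and a line at the group mean. Surface wild libraries 1 and 2 stand above all others for fgb and fgg, and the 3 wild cave livers lie below all others for f5, f9a and f9b.

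The fibrinogen chains were among the most abundant transcripts of these livers and were lower in wild cave than in wild surface fish. The beta chain gene fgb (ENSAMXG00000018060) had 3727, 4534 and 5511 TPM in wild cave livers, 7186, 5334 and 5185 in laboratory cave livers, 20273, 21895 and 8096 in wild surface livers, and 8093, 7359 and 3434 in laboratory surface livers. The gamma chain gene fgg (ENSAMXG00000021816) had 3848, 5409 and 5119 TPM in wild cave livers, 6537, 4966 and 5415 in laboratory cave livers, 23161, 23524 and 8039 in wild surface livers, and 10898, 9264 and 5387 in laboratory surface livers. Surface wild libraries 1 and 2 were the highest for both chains, and the wild cave and wild surface groups did not overlap for either. The beta and gamma chain together made up 0.757 to 1.06% of all TPM in wild cave livers, 1.03 to 1.37% in laboratory cave livers, 4.34, 4.54 and 1.61% in wild surface livers, and 0.882 to 1.90% in laboratory surface livers.

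Between the wild groups, fgb fell by 1.76 ± 0.39 (SE) log2 in cave fish and fgg by 1.79 ± 0.38, with adjusted p of 0.0108 and 0.00967 in limma. After median-of-ratios scaling the differences were -1.08 ± 0.36 and -1.11 ± 0.35, and adjusted p of 0.0563 and 0.0508 missed the threshold of 0.05. Without surface wild libraries 1 and 2, fgb differed by -0.84 (adjusted p = 0.383) and fgg by -0.76 (adjusted p = 0.359). Leaving out any single library kept both calls. In surface fish fgb rose in wild-caught over laboratory livers by 1.38 ± 0.39 log2 (limma, adjusted p = 0.0338), and the groups did not overlap, although surface wild library 3, at 8096 TPM, lay just above surface lab library 1, at 8093 TPM. The fgg difference of 1.00 ± 0.38 had an adjusted p of 0.0860, while after scaling both chains passed, fgb at 1.52 ± 0.36 (adjusted p = 0.0181) and fgg at 1.14 ± 0.35 (adjusted p = 0.0449). The fgb call was lost without surface wild library 1 (adjusted p = 0.124), surface wild library 2 (0.115) or surface lab library 3 (0.114), and without surface wild libraries 1 and 2 together the difference was 0.46 (adjusted p = 0.640). Without surface wild library 3 the fgg difference passed as well (adjusted p = 0.00373), and without surface wild libraries 1 and 2 it was -0.02 (adjusted p = 0.985).

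**Figure D2:**
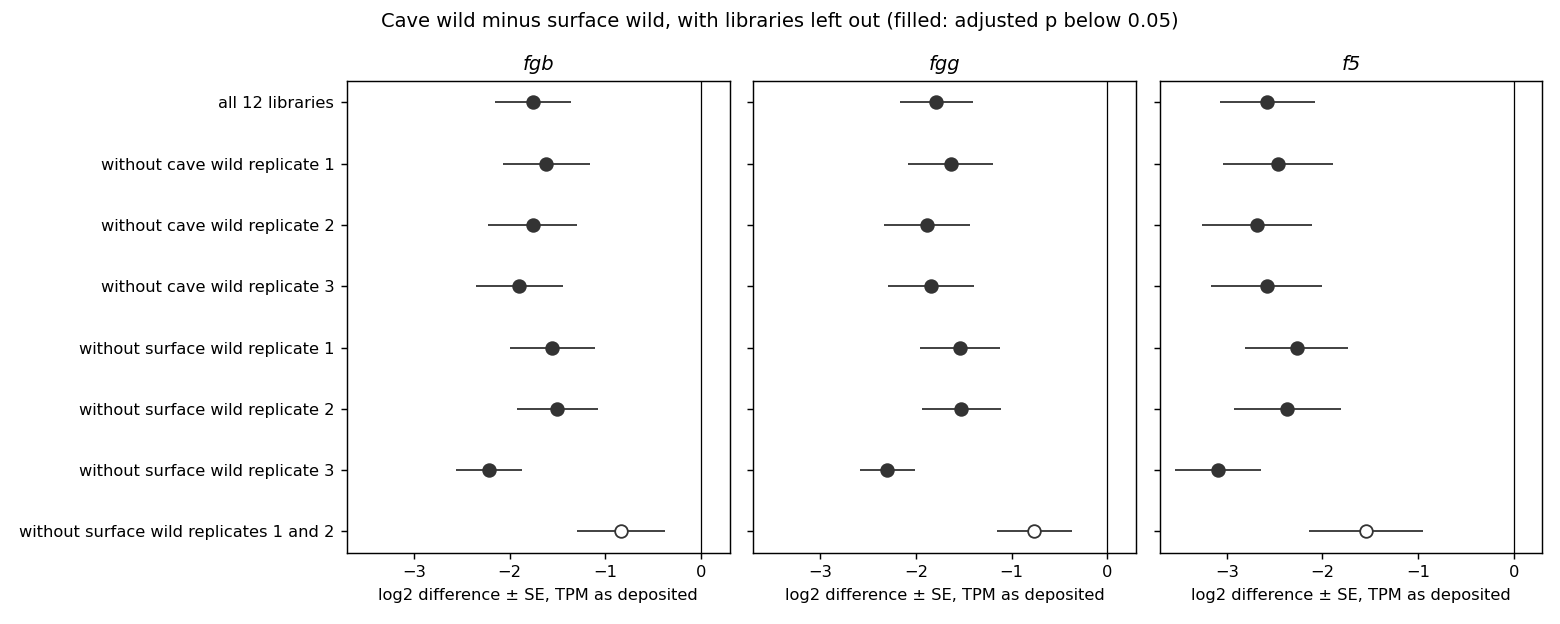
Difference in fgb, fgg and f5 between wild cave and wild surface livers (log2 of TPM + 1, x axis, ± SE) with all 12 libraries and with libraries left out, filled where the adjusted p was below 0.05. Every single omission of a wild library keeps the difference past the threshold, and the omission of surface wild libraries 1 and 2 together moves the 3 genes toward 0, to -0.84, -0.76 and -1.55, with no adjusted p below 0.05.

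Factor V, the cofactor that speeds the cutting of prothrombin by factor X, had the largest difference of the 8 genes over the 4 comparisons of group pairs. f5 (ENSAMXG00000012372) had 119, 162 and 140.3 TPM in wild cave livers, 1038, 424 and 432 in laboratory cave livers, 1279.6, 1112 and 408 in wild surface livers, and 1110.3, 559.5 and 511 in laboratory surface livers. The wild cave libraries were below all 9 others, and the other 3 groups overlapped each other. f5 fell by 2.58 ± 0.49 log2 in wild cave against wild surface livers (limma, adjusted p = 0.00668) and, after median-of-ratios scaling, by 1.90 ± 0.49 (adjusted p = 0.0240), the single member that passed both ways in that comparison. The call held in every fit that left out 1 library, with differences between -3.09 and -2.27. Without surface wild libraries 1 and 2 the difference was -1.55 ± 0.60, with an adjusted p of 0.249. Against laboratory cave livers f5 fell by 2.04 ± 0.49 in wild cave livers (adjusted p = 0.0101), but the scaled difference of -1.05 had an adjusted p of 0.203.

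Prothrombin, the precursor of thrombin, and factor X, which cuts it, varied least. f2 (ENSAMXG00000021260) had 2383, 2275 and 3648 TPM in wild cave livers, 4075, 3362 and 3990.1 in laboratory cave livers, 2964, 3826 and 3219 in wild surface livers, and 4676, 6577 and 4219 in laboratory surface livers. f10 (ENSAMXG00000016120) had 401, 583 and 656 TPM in wild cave livers, 932, 983 and 946 in laboratory cave livers, 759.7, 596 and 719 in wild surface livers, and 954, 1375 and 1163 in laboratory surface livers. For both genes the laboratory groups had higher mean TPM than the wild-caught groups of the same form. After scaling f2 went the other way in cave fish, by 0.51 log2 (adjusted p = 0.213), with all 3 wild cave livers above all 3 laboratory cave livers. f10 fell by 0.83 ± 0.26 log2 in wild against laboratory cave livers (limma, adjusted p = 0.0293). This direction did not survive scaling, where the difference was 0.16 with an adjusted p of 0.742, and the call was lost without cave wild library 1 (adjusted p = 0.118) or without cave lab library 1 (0.0633), 2 (0.0833) or 3 (0.0726). f2 passed in none of the comparisons, its smallest adjusted p being 0.0961 for a difference of -0.61 ± 0.24 between wild and laboratory surface livers. Both genes were lower in wild than in laboratory surface livers without overlap, and f10 differed there by -0.74 ± 0.26 (adjusted p = 0.0676).

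Factor IX, the protease that activates factor X, is present as a pair of genes. f9a (ENSAMXG00000000047) had 142, 168 and 155 TPM in wild cave livers, 322, 228 and 235 in laboratory cave livers, 389, 225 and 219 in wild surface livers, and 390.1, 696 and 229.5 in laboratory surface livers. f9b (ENSAMXG00000035231) had 70.1, 82.3 and 77.0 TPM in wild cave livers, 252, 139 and 186 in laboratory cave livers, 134, 210.4 and 146 in wild surface livers, and 309.6, 376 and 199 in laboratory surface livers. Wild cave livers were the lowest 3 of the 12 for both genes. f9b fell by 1.06 ± 0.35 log2 in wild cave against wild surface livers (limma, adjusted p = 0.0363) and by 1.28 ± 0.35 against laboratory cave livers (adjusted p = 0.0157), and neither call held after scaling, at -0.39 (adjusted p = 0.409) and -0.29 (adjusted p = 0.614). Against wild surface livers it was also lost without cave wild library 1, 2 or 3 (adjusted p = 0.0896, 0.0757 and 0.0811), cave lab library 3 (0.0553), surface wild library 1 (0.0609) or 2 (0.129), and without both of these the difference was -0.93 (0.357). Against laboratory cave livers it was lost without cave wild library 1 (0.0563) or cave lab library 1 (0.0625). f9a differed by -0.79 ± 0.40 and -0.74 ± 0.40 in the same comparisons, with adjusted p of 0.146 and 0.163. How reads shared by such gene copies were divided is not known here, so the split between f9a and f9b is uncertain.

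Factor VII, which meets tissue factor at a wound, was the least abundant. f7 (ENSAMXG00000031178) had 27.6, 25.0 and 42.4 TPM in wild cave livers, 77.0, 91.3 and 102 in laboratory cave livers, 41.9, 35.6 and 82.8 in wild surface livers, and 66.0, 186 and 158 in laboratory surface livers. All 3 wild cave livers were below all 3 laboratory cave livers, whereas the surface groups overlapped. f7 fell by 1.51 ± 0.45 log2 in wild against laboratory cave livers (limma, adjusted p = 0.0229), a call lost after scaling (-0.53, adjusted p = 0.497) and without cave wild library 1 (0.0755) or 2 (0.0641) or cave lab library 2 (0.0630) or 3 (0.0686). Between wild and laboratory surface livers the difference was -1.31 ± 0.45 (adjusted p = 0.0602). With the replicate number as a block, f7 fell there too, with an adjusted p of 0.0429, as it did without surface wild library 3 (0.0174) or surface lab library 1 (0.0223). Without surface wild libraries 1 and 2 its difference was -0.59, with an adjusted p of 0.637. Factor VII has close relatives in the same gene cluster, and reads shared with them cannot be checked from TPM.

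Taking the comparisons in turn, 4 of the 8 genes fell in wild cave against wild surface livers (f5, f9b, fgb and fgg), 0 rose and 4 did not pass, beside 26.5% of all tested genes that were called lower. All 8 differences were negative as deposited, whereas after scaling f2 (0.39) and f10 (0.32) were positive. The median of the 8 as deposited was -0.93 log2, against -0.46 over all tested genes. The groups did not overlap for 5 of the 8, all lower in cave fish, as for 37.2% of all tested genes, and after scaling for 4 of the 8 (f5, f9b, fgb and fgg), all lower, as for 14.4%. After scaling 1 of the 8 was called lower, where 7.85% of all tested genes were. With surface wild libraries 1 and 2 left out, the median of the 8 was -0.80 log2, against -0.36 over all tested genes.

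In laboratory fish no clotting gene differed between the forms in limma, with 0 of 8 called, 0 at an unadjusted p under 0.05, and 7.55% of all tested genes called in either direction. After scaling 0 were called, beside 5.89% of all tested genes, and 3 were at an unadjusted p under 0.05. All 8 differences were negative, from -0.62 ± 0.40 for f9a to -0.01 ± 0.39 for fgb, and their median was -0.44, against 0.10 over all tested genes. f2, at -0.42 ± 0.24 (adjusted p = 0.375), was the single gene whose laboratory groups did not overlap, and 8.73% of all tested genes were lower without overlap. After scaling 4 of the 8 were lower without overlap (f2, f9b, f10 and fgg), beside 16.4% of all tested genes. With 3 libraries a group, such p-values do not show that the laboratory forms were alike.

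In cave fish 4 of the 8 genes fell in wild-caught against laboratory livers (f5, f7, f9b and f10) and 0 rose, beside 34.3% of all tested genes that were called lower. The median of the 8 was -0.79, against -0.69 over all tested genes. The groups did not overlap for 5 of the 8, which were lower, as were 56.6% of all tested genes. After scaling f2, fgb and fgg were higher in wild cave livers without overlap, as were 19.4% of all tested genes, and f5 alone was lower, as were 18.7%. After scaling 0 of the 8 passed in limma, with 7.28% of all tested genes called in either direction, and the median of the 8 was 0.21. Among the 4, f10 lay nearest the median of all genes and f5 farthest below it. In surface fish 1 of 8 rose in wild-caught against laboratory livers, fgb, where 6.77% of all tested genes were called higher. The surface groups did not overlap for fgb, which was higher, as were 10.6% of all tested genes, or for f2 and f10, which were lower, as were 20.7%. After scaling fgb was again higher without overlap, as were 17.3% of all tested genes, and f2, f9b and f10 were lower, as were 17.2%. After scaling 2 of 8 rose, fgb and fgg, where 9.48% of all tested genes did. With the replicate block 2 of 8 were called, fgb higher and f7 lower, and without the block 18% of all tested genes were called in either direction.

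Whether the form difference itself differed between wild-caught and laboratory fish was tested as an interaction, and 0 of the 8 genes passed in limma, where 5.08% of all tested genes did. At an unadjusted p under 0.05 there were 3, f5 at -2.33 ± 0.70 log2 (adjusted p = 0.0668), fgb at -1.74 ± 0.56 (0.0758) and fgg at -1.24 ± 0.54 (0.146). Without surface wild library 3 all 3 passed, f5 at -2.85 (adjusted p = 0.0110), fgb at -2.20 (0.0104) and fgg at -1.76 (0.0127). Calls rose over the whole table in that fit, to 3035 of the 12895 tested genes, against 655 with all libraries. Without surface wild libraries 1 and 2 the values were -1.30 for f5 (adjusted p = 0.419), -0.82 for fgb (0.497) and -0.22 for fgg (0.835). After median-of-ratios scaling with all libraries they were -1.48 for f5 (adjusted p = 0.266), -0.89 for fgb (0.355) and -0.39 for fgg (0.712). The 4 comparisons of group pairs share libraries, so their values are set side by side and not correlated.

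**Figure D3:**
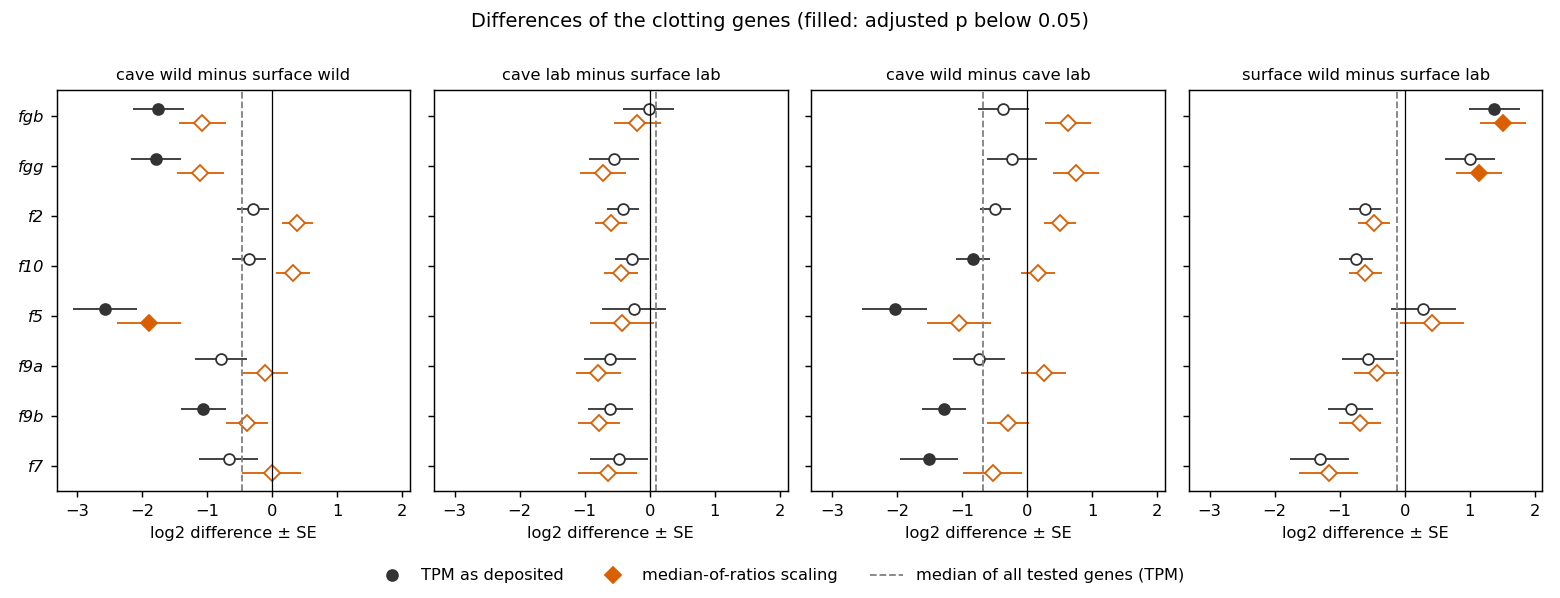
Log2 differences (x axis, ± SE) of the 8 clotting genes in the 4 comparisons of group pairs, as deposited (circles) and after median-of-ratios scaling (diamonds), filled where the adjusted p was below 0.05, with a dashed line at the median of all tested genes. Circles for wild cave minus wild surface are all below 0, where the diamonds of f2 and f10 lie above 0, and f5 alone is filled on both scales there.

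Ratios between genes of the same library do not move with its scaling. The ratio of fgb to f2 was 1.56, 1.99 and 1.51 in wild cave livers, 1.76, 1.59 and 1.30 in laboratory cave livers, 6.84, 5.72 and 2.51 in wild surface livers, and 1.73, 1.12 and 0.814 in laboratory surface livers. All 3 wild surface livers thus held more fibrinogen beta chain transcript per prothrombin transcript than the other 9, and surface wild libraries 1 and 2 held the most. The ratio of f5 to f2 was 0.0498, 0.0711 and 0.0384 in wild cave livers, 0.255, 0.126 and 0.108 in laboratory cave livers, 0.432, 0.291 and 0.127 in wild surface livers, and 0.237, 0.0851 and 0.121 in laboratory surface livers. The wild cave livers were again below all 9 others, without any shift from the library's scale. These ratios are descriptions and were not tested.

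The fibrinogen chains enter the protein in equal numbers, and the ratio of fgg to fgb stayed within a narrow band. It was 1.03, 1.19 and 0.929 in wild cave livers, 0.910, 0.931 and 1.04 in laboratory cave livers, 1.14, 1.07 and 0.993 in wild surface livers, and 1.35, 1.26 and 1.57 in laboratory surface livers. The laboratory surface livers were above all 9 others. The log2 ratio of cave over surface livers, averaged over wild-caught and laboratory fish, was -0.28, made up of -0.03 in wild-caught and -0.53 in laboratory fish. An exact permutation test with labels exchanged within each environment gave a two-sided p of 0.045, and 0.18 after Benjamini-Hochberg adjustment over the 4 ratio tests. The smallest p the 400 orders can give is 0.005. Wild-caught over laboratory livers differed by -0.13 (exact permutation p = 0.295, adjusted 0.393).

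The ratio of f9a to f9b was 2.02, 2.03 and 2.01 in wild cave livers, 1.28, 1.64 and 1.26 in laboratory cave livers, 2.90, 1.07 and 1.495 in wild surface livers, and 1.26, 1.85 and 1.15 in laboratory surface livers. The wild cave livers lay close together and above the laboratory cave livers, and the wild surface livers spread on both sides of them. Neither the form difference of 0.13 log2 (exact permutation p = 0.65) nor the difference of 0.40 between wild-caught and laboratory livers (exact permutation p = 0.125, adjusted 0.25) passed.

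**Figure D4:**
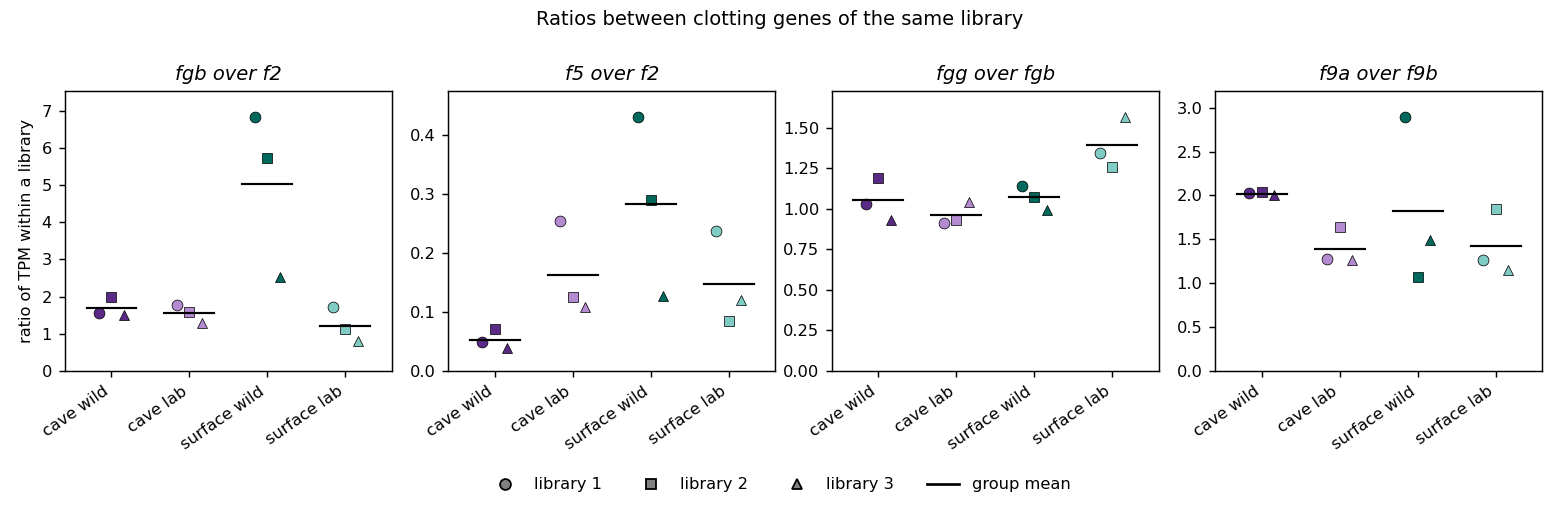
Ratios of TPM between pairs of clotting genes within a library (y axis from 0), by group, with a line at the group mean. Wild surface livers are highest for fgb over f2, wild cave livers lowest for f5 over f2, and laboratory surface livers highest for fgg over fgb.

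Genes around the cascade were read from lists, whose counts stand beside the shares of all tested genes. As deposited, 5.13% were called higher and 26.5% lower between the wild groups, 2.3% lower between the laboratory groups, 34.3% lower in wild against laboratory cave livers, and 6.77% higher and 11.2% lower in wild against laboratory surface livers. Among 22 other names of clotting factors, 8 had an entry and 4 passed the filter on low values, and f7i, whose product inhibits the factor VII pathway in zebrafish, was the single gene called. It had 17.5, 16.4 and 26.7 TPM in wild cave livers, 18.95, 22.0 and 22.0 in laboratory cave livers, 46.6, 62.5 and 64.0 in wild surface livers, and 83.2, 88.4 and 65.8 in laboratory surface livers. All 6 cave livers were below all 6 surface livers. It fell in cave fish by 1.49 ± 0.30 log2 among wild-caught (limma, adjusted p = 0.00804) and by 1.86 ± 0.30 among laboratory fish (adjusted p = 0.00256), and after scaling these adjusted p were 0.0654 and 0.00148.

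Of 7 tested anticoagulant genes, 1 rose and 2 fell in wild cave against wild surface livers, 2 of 7 being close to the 26.5% of all tested genes called lower, none was called between the laboratory groups (1 at an unadjusted p under 0.05), and 2 fell in wild-caught against laboratory livers of each form. pros1, which encodes protein S, a cofactor of activated protein C, fell by 1.00 ± 0.30 log2 in wild cave fish (limma, adjusted p = 0.0285), and tfpi2, a protease inhibitor gene, by 0.85 ± 0.28 (adjusted p = 0.0397), from levels of at most 3.95 TPM. proza, a relative of protein Z, was the one that rose, by 1.29 ± 0.46 (adjusted p = 0.0497). After scaling 2 of the 7 rose and 0 fell between the wild groups, beside 1299 of the 12895 tested genes higher and 1012 lower. Between the laboratory groups 1 fell after scaling, beside 311 of all tested genes. serpind1 encodes heparin cofactor II, a thrombin inhibitor, and had 383, 641 and 684 TPM in wild cave livers, 1452, 1273 and 1366 in laboratory cave livers, 764, 815 and 886 in wild surface livers, and 1630.4, 1991 and 1711 in laboratory surface livers. It fell in wild-caught against laboratory livers by 1.30 ± 0.26 in cave fish (adjusted p = 0.00445) and by 1.11 ± 0.26 in surface fish (adjusted p = 0.0170). serpina10a, which encodes a protein Z-dependent inhibitor of factor X, fell by 1.25 ± 0.34 in cave fish (adjusted p = 0.0171) and by 1.92 ± 0.34 in surface fish (adjusted p = 0.00617). After scaling the 2 genes that fell in wild cave fish no longer passed (pros1 adjusted p = 0.399, tfpi2 0.272). serpind1 and serpina10a held in surface fish, at adjusted p of 0.0277 and 0.00940, and neither in cave fish, at 0.495 and 0.674.

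Of 9 tested fibrinolysis regulators, 1 rose and 2 fell in wild cave against wild surface livers, and 1 rose and 2 fell in wild-caught against laboratory surface livers. The 2 of 9 that fell between the wild groups are no larger a share than the 26.5% of all tested genes. HABP2, a plasma protease that binds hyaluronan, rose in wild cave fish by 2.28 ± 0.53 log2 (limma, adjusted p = 0.0119) and, in wild-caught against laboratory surface fish, fell by 2.80 ± 0.53 (adjusted p = 0.00758). It had 205, 559.8 and 301 TPM in wild cave livers, 464, 543 and 659.7 in laboratory cave livers, 70.0, 29.2 and 142 in wild surface livers, and 354, 466 and 629.5 in laboratory surface livers. The wild surface livers were the lowest 3. cpb2, which encodes a carboxypeptidase that protects fibrin from plasmin, fell by 1.81 ± 0.49 in wild-caught surface fish (adjusted p = 0.0272). plat, the tissue plasminogen activator gene, fell in wild against laboratory cave livers by 0.88 ± 0.25 (adjusted p = 0.0185), at no more than 2.63 TPM anywhere. anxa2a, which encodes a plasminogen-binding annexin, fell in wild cave against wild surface livers by 1.33 ± 0.37 (adjusted p = 0.0206), and 8.18 TPM in surface wild library 1 was its highest value. The gene s100a10b, which encodes the partner of that annexin, fell by 1.01 ± 0.36 (adjusted p = 0.0489), and anxa2a was the gene that rose in wild-caught surface fish, by 1.24 ± 0.37 (adjusted p = 0.0379). After scaling both HABP2 differences passed (adjusted p = 0.00631 and 0.0126), as did anxa2a in surface fish (0.0262), while cpb2 (0.0518), plat (0.297) and, in wild cave fish, anxa2a (0.0690) and s100a10b (0.437) did not.

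In the vitamin K cycle, 3 of 4 tested genes fell in wild against laboratory cave livers, beside 34.3% of all tested genes. ggcx, the carboxylase that modifies factors II, VII, IX and X, had 21.8, 19.2 and 24.0 TPM in wild cave livers, 72.5, 72.5 and 59.4 in laboratory cave livers, 64.6, 46.0 and 25.8 in wild surface livers, and 45.4, 85.1 and 53.4 in laboratory surface livers. Wild cave livers were below all 9 others. ggcx fell there by 1.61 ± 0.37 log2 against laboratory cave livers (limma, adjusted p = 0.00840), and vkorc1l1, a vitamin K epoxide reductase, by 1.29 ± 0.40 (adjusted p = 0.0274). The third was vkorc1, its close relative, which fell by 1.18 ± 0.40 (adjusted p = 0.0362). After scaling none of the 4 genes passed in this comparison (ggcx -0.64, adjusted p = 0.235).

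Factor V leaves the endoplasmic reticulum in mammals with the cargo receptor of lman1 and mcfd2. Of 7 tested genes of this receptor, of surf4 type and of the COPII coat that packs it, 6 fell in wild cave against wild surface livers, beside 26.5% of all tested genes, 0 rose, and the median difference of the 7 was -2.12 log2, against -0.46 over all tested genes. lman1 had 33.5, 11.1 and 6.01 TPM in wild cave livers, 17.4, 18.0 and 14.9 in laboratory cave livers, 53.1, 76.2 and 40.8 in wild surface livers, and 8.28, 39.1 and 4.20 in laboratory surface livers. Unlike f5, lman1 in wild cave livers overlapped both laboratory groups. Of the receptor's genes, mcfd2 was not called between the wild groups, and lman1 fell by 1.97 ± 0.70 log2 (limma, adjusted p = 0.0491). The scaled difference of lman1 was -1.33 (adjusted p = 0.179). sec24a, a coat subunit, had 3.50, 2.66 and 2.75 TPM in wild cave livers, 7.59, 8.05 and 7.78 in laboratory cave livers, 22.6, 22.7 and 8.02 in wild surface livers, and 10.2, 11.9 and 4.95 in laboratory surface livers. As for f5, the wild cave livers were the lowest 3 of the 12. sec24a fell in wild cave against wild surface livers by 2.12 ± 0.40 (limma, adjusted p = 0.00612) and surf4l, a cargo receptor gene, fell by 3.32 ± 0.64 (adjusted p = 0.00676). After scaling 3 of the 7 fell, neither lman1 nor mcfd2 among them, beside 7.85% of all tested genes. In wild against laboratory cave livers, where f5 was also called, 2 of the 7 fell (sec24a and sec24b), beside 34.3% of all tested genes. After scaling 0 of the 7 fell there. Between the laboratory groups 0 were called, beside 7.55% of all tested genes. In wild-caught against laboratory surface livers surf4l rose by 2.76 ± 0.64 (adjusted p = 0.0166), and sec23b, another coat subunit, by 2.05 ± 0.63 (adjusted p = 0.0425). Both passed the interaction test, sec23b at -3.69 (adjusted p = 0.0400) and surf4l at -3.46 (adjusted p = 0.0493), which they did not after scaling (adjusted p = 0.0942 and 0.115), nor without surface wild libraries 1 and 2. Of all tested genes 4.19% were called lower in that test.

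Of 15 tested liver transcription factor genes, 1 rose and 1 fell in wild cave against wild surface livers, 1 fell in laboratory cave against laboratory surface livers, and 5 fell in wild against laboratory cave livers (hnf4a, nr5a2, onecut1, foxa2 and foxa3). The 5 of 15 are close to the 34.3% of all tested genes called lower there, and after scaling none of the 15 was called lower. The riser was cebpd, at 1.77 ± 0.62 log2 (adjusted p = 0.0469). hnf4b, a relative of the hepatocyte regulator hnf4a, was lower in cave fish of both environments, by 1.23 ± 0.32 in wild-caught (limma, adjusted p = 0.0162) and by 1.41 ± 0.32 in laboratory fish (adjusted p = 0.0173). It had 25.0, 27.4 and 35.2 TPM in wild cave livers, 35.2, 34.4 and 38.2 in laboratory cave livers, 81.6, 82.8 and 49.3 in wild surface livers, and 102, 116 and 77.4 in laboratory surface livers, with no overlap between cave and surface livers. After scaling the adjusted p of hnf4b was 0.157 in wild-caught and 0.00512 in laboratory fish. hnf4a itself fell in wild against laboratory cave livers by 1.88 ± 0.49 (adjusted p = 0.0141), and by 0.91 after scaling, where the adjusted p was 0.251.

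In the IL-6 signalling list 4 of 10 tested genes fell (il6r, stat3, jak1 and socs3b) and 1 rose (cebpd) in wild cave against wild surface livers, beside 26.5% of all tested genes lower and 5.13% higher, and 1 fell in laboratory cave against laboratory surface livers. The gene of the cytokine itself, il6, was at no more than 0.07 TPM in any library and was not tested. After scaling socs3b was lost (adjusted p = 0.226). In wild against laboratory cave livers jak1, jak2a and jak2b fell, none of which held after scaling, and socs3a, a feedback inhibitor of the pathway, rose by 1.45 ± 0.42 log2 (adjusted p = 0.0217, after scaling 0.00883). In wild against laboratory surface livers socs3a rose by 1.63 ± 0.42 (adjusted p = 0.0244), and cebpd fell by 2.77 ± 0.62 (adjusted p = 0.0142). The receptor gene il6r had 45.0, 46.3 and 50.6 TPM in wild cave livers, 87.6, 82.5 and 96.0 in laboratory cave livers, 298, 158 and 136 in wild surface livers, and 293, 393 and 226 in laboratory surface livers. All cave livers were below all surface livers, and il6r fell by 1.95 ± 0.35 log2 in wild-caught (limma, adjusted p = 0.00513) and by 1.73 ± 0.35 in laboratory cave fish (adjusted p = 0.00920), and both held after scaling (0.0187 and 0.00371). stat3 is the transcription factor that carries the signal. It had 2.11, 5.47 and 10.9 TPM in wild cave livers, against 70.3, 68.7 and 19.1 in wild surface livers. In laboratory cave livers it had 22.1, 10.54 and 9.66 TPM, and in laboratory surface livers 33.94, 36.23 and 13.98. Surface wild library 3 was the lowest of its group for stat3, il6r, jak1, jak2a, socs3a and both fibrinogen chains. It was the highest for cebpb and cebpd, and lay apart from libraries 1 and 2 over all tested genes. Mean il6r was lower in wild than in laboratory surface livers, although these overlapped, whereas fgb was higher. A link of this list with fibrinogen was not tested. When surface wild libraries 1 and 2 were left out, calls involving that group became few over all tested genes. Lost calls of these 7 lists are therefore not read as results about them. Between the wild groups the list medians then ran from -1.19 log2 (export of factor V) to -0.14 (fibrinolysis regulators), against -0.36 over all tested genes. Between the surface groups they ran from -0.96 (liver transcription factors) to 0.60 (export of factor V), against -0.22. The laboratory differences of f7i, hnf4b and il6r do not use the surface wild libraries except through the shared spread, so this omission does not check them.

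The tissue matched its label, with hepatocyte markers abundant in every library. The summed TPM of 15 such genes was 129247 to 144841 in wild cave livers, 129722 to 167525 in laboratory cave livers, 59800.4, 50791.7 and 94019 in wild surface livers, and 132265 to 161639 in laboratory surface livers. Surface wild libraries 1 and 2, with the most fibrinogen, thus had the lowest sums of other hepatocyte genes. In these sums fabp10a alone held 87229 TPM in cave wild library 1 and 31927 in surface wild library 1. Of 13 tested, 5 rose and 1 fell (apoba) in wild cave against wild surface livers, beside 5.13% and 26.5% of all tested genes. In wild-caught against laboratory surface livers 5 fell, beside 11.2% of all tested genes. The part of this list in the results was not tested. Thrombocytes, the clotting cells of fish, were near the limit, with 11 markers summing to 6.24 to 27.3 TPM. Macrophage markers, 9 in number, summed to 11.9 to 21.9 TPM in wild cave livers, 45.8 to 60.3 in laboratory cave livers, 61.9 to 89.6 in wild surface livers, and 24.4 to 141 in laboratory surface livers. One of them, csf1ra, made up 50.4 TPM in surface wild library 2 and 78.0 and 120.3 TPM in surface lab libraries 1 and 2. The other 8 summed to 10.9 to 20.0 TPM in wild cave livers, 43.2 to 54.9 in laboratory cave livers, 39.2 to 62.9 in wild surface livers, and 20.6 to 28.5 in laboratory surface livers. Of 8 tested, 7 fell in wild cave against wild surface livers, beside 26.5% of all tested genes, and 1 after scaling, beside 7.85%. In wild-caught against laboratory surface livers 4 rose (coro1a, lcp1, MPEG1 and PTPRC), where fgb rose too, beside 6.77% of all tested genes. After scaling 5 rose there, beside 9.48%. In the interaction test 6 passed with negative values, beside 4.19% of all tested genes called lower, and 0 passed after scaling. Without surface wild libraries 1 and 2, MPEG1 and ctsk were still lower between the wild groups and MPEG1 higher in wild-caught surface livers. Between the wild groups this list thus moved in the same direction as f5 and the fibrinogen chains, and in surface fish as fgb. Library by library it did not follow them within the wild surface livers. The markers other than csf1ra summed there to 59.2, 39.2 and 62.9 TPM, highest in library 3, where f5, fgb and fgg were lowest. Between the laboratory forms its median was 0.74 log2, against -0.44 for the 8 clotting genes and 0.10 over all tested genes. In wild against laboratory cave livers 6 of its 8 tested genes fell, beside 34.3% of all tested genes. There f5 fell too, whereas fgb and fgg were not called. After scaling fgb and fgg were higher there without overlap, as were 19.4% of all tested genes. The part of this list in those results was not tested. Erythrocyte markers, 4 in number with hbae3 at 0 throughout, summed to 97.7 to 170.2 TPM in wild cave livers, 188 to 257 in laboratory cave livers, 18.1 to 59.4 in wild surface livers, and 177 to 347 in laboratory surface livers. Endothelial markers, 12 in number, summed to 14.7 to 21.3 TPM in wild cave livers, below all 9 others, with 34.5 to 44.6 in laboratory cave livers, 24.4 to 36.4 in wild surface livers, and 26.7 to 28.7 in laboratory surface livers. Of 10 tested, 4 fell in wild against laboratory cave livers (kdrl, cdh5, flt1 and kdr), beside 34.3% of all tested genes, and 0 after scaling. The median of the 10 was -0.66 log2, close to -0.69 over all tested genes. In the same comparison 6 of 8 macrophage and 5 of 13 hepatocyte markers also fell, and 0 of either after scaling. The f5, f7, f9b and f10 calls had the same direction, as had those of 34.3% of all tested genes, and the part of these lists was not tested. The 2 exocrine pancreas genes found summed to 153 to 3475 TPM over all libraries.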

How the data were processed

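The deposited table holds TPM per Ensembl gene and library. Per the submitters' processing notes, the authors used bcl2fastq 2.18, STAR 2.6.1c and RSEM, and per the labels' protocols stranded libraries were read as 75 nt single reads. Depth is unknown. The build and annotation were not given in the sources used here, nor was the RSEM version. The members and lists were chosen with earlier results of these data known.

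From the 27420 genes, those at 1 TPM or more in at least 3 libraries (12895) were taken as log2(TPM + 1) and fitted with limma 3.58.1 under R 4.3.3. The model had 4 group means over all 12 libraries and eBayes with a trend. P-values were two-sided and adjusted by Benjamini-Hochberg over all genes tested within each contrast, with 0.05 as the threshold. Fold changes on this scale understate changes of low genes. Fits were tested on simulated data. In each list and contrast, up to 2 called genes with the smallest adjusted p are named, or the most abundant where none passed. Other members of counts of 5 or fewer (proza, s100a10b, vkorc1, jak1, jak2b, socs3a, socs3b, onecut1, foxa2, foxa3 and markers) were named with values known. The same holds for lman1, mcfd2 and cebpd in wild fish. Other settings tried were scaling by median-of-ratios or quantiles, other pseudocounts and filters, no trend, removal of 92 ribosomal protein genes, the compared libraries alone, a replicate block and omitted libraries. The intended ratio of fga to fgb was not made. Same-numbered libraries of the surface groups deviated together, with correlations of 0.153, 0.111 and 0.271, and the block is given there, a choice made from these values. Of 18 such correlations between groups 4 were above 0.1, the other being 0.110 for library 1 of the wild groups. The lowest was -0.207, for library 2 of the laboratory cave and wild surface groups. Gene neighbours come from RefSeq, AstMex3_surface.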

Additional observations from a re-analysis of the deposited data

How the results depend on the processing

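The 4 members lower in wild cave against wild surface livers became 1 after median-of-ratios scaling and 0 without surface wild replicates 1 and 2, with 3 to 4 over omissions of single libraries. The 4 lower in wild against laboratory cave livers became 0 after median-of-ratios or quantile scaling and 1 with ribosomal protein genes removed, with 1 to 4 over omissions and 1 without cave wild library 1. There f10 reversed to 0.16 log2 after median-of-ratios scaling (adjusted p = 0.742). The single call between wild and laboratory surface livers became 2 after median-of-ratios scaling, without the trend and with the replicate block, and 0 without the filter, with only the 6 libraries compared or without surface wild replicates 1 and 2; omissions gave 0 to 3. The block changed no other count of members. The interaction's 0 members became 3 without surface wild library 3, where calls over all genes rose from 655 to 3035. The laboratory comparison of forms gave 0 in every fit run. Over omissions, the log2 ratio of fgg to fgb ran from -0.33 to -0.23 for form and from -0.17 to -0.08 for environment, and that of f9a to f9b from -0.027 (without surface wild library 2) to 0.33 and from 0.20 to 0.56. Over all genes, 4074 calls between the wild groups became 2311 after median-of-ratios and 2025 after quantile scaling, 4618 in cave fish became 939 and 934, and 655 interactions became 271 and 232. Without surface wild replicates 1 and 2 the wild groups had 226. The share of calls that were higher was 16.2% as deposited and 56.2% after median-of-ratios scaling between the wild groups, 69.6 and 59.08% between the laboratory groups, 4.22 and 51.5% in cave fish, 37.7 and 51.7% in surface fish, and 17.6 and 68.6% for the interaction. The causes were not tested beyond these settings. TPM keeps no depth, so limits on low genes cannot be given.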

Other observations

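Likeness of pattern was measured as the root mean square difference between log2 values over the 12 libraries, each gene centred on its own mean, among 9883 genes with a symbol of their own. Within the set, fgb and fgg were the closest pair, at 0.229, followed by f2 and f10 at 0.271, while f9a and f9b were 0.409 apart and f7 and fgb the farthest at 1.32. The genes nearest the mean pattern of fgb and fgg were BET1L at 0.216, ubap2b at 0.216 and mmgt1 at 0.219, against a spread of that pattern of 0.806 (SD). For f5, with a spread of 1.15, they were rab1ba at 0.344, slc38a3b at 0.389 and sdcbp2 at 0.393. f2 lay nearest gtpbp2b (0.173), f10 nearest znf653 (0.163), f9a nearest cd2ap (0.240), f9b nearest rab5b (0.213) and f7 nearest sdc2 (0.307). All points share libraries and their makeup, so these are descriptions only.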
